A study of Syringa oblata with 2 samples.

Results

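Chlorophyll and porphyrin metabolism was examined in *Syringa oblata* leaves through the unigenes that the deposited annotation assigns to the KEGG pathway for porphyrin and chlorophyll metabolism. A unigene is the transcript kept for 1 assembled gene. Of 73159 unigenes, 177 carried the pathway, 34 of them had rice (*Oryza*) as their best protein match and were left out, and 143 remained. By protein description, 63 of the 143 were enzymes of the pathway at 32 steps, namely 23 of the common trunk, 21 of the magnesium branch, 5 of the chlorophyll b cycle, 4 of chlorophyll breakdown and 10 of the heme, bilin and siroheme branch. The other 80 carried the pathway number but another protein name, and 36 of those were MYB-type transcription factors.

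Lilac trees on a university campus were grown in natural light (Z0) or under a black net with 40% to 50% shading (Z1). The nets stood from May to September of a single year, no water or fertilizer was added, and leaves came from 5 trees per group. Poly(A) RNA was sequenced from 2 biological repeats per condition, although the labels call the molecule genomic DNA, and which trees entered which library was not given. Values are TPM, a share of all transcripts that is corrected for transcript length, so that levels of different unigenes can be compared. A leaf is a mixture of cells, and fewer cells of a type cannot be told apart from less RNA per cell.

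Plants build chlorophyll and heme from glutamate on 1 common trunk that runs through 5-aminolevulinic acid to protoporphyrin. Magnesium insertion then leads to chlorophyll, iron insertion leads to heme and the bilin pigment of phytochrome, and an early side branch gives siroheme, the cofactor of nitrite and sulfite reductases. The first committed enzyme, glutamyl-tRNA reductase, is the main point of control, and protochlorophyllide reductase of flowering plants needs light to work.

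The libraries were leaf libraries by their markers. Summed TPM of 7 mesophyll genes lay between 21566 and 24648, and that of root markers between 1.37 and 3.46, with CASP1 and NRT2.1 not found among the names. Guard cell markers summed to between 5.49 and 11.0 TPM. Phloem markers summed to 339 and 483 TPM in natural light against 256 and 297 TPM in shade. Among them SUC2 was lower, at 160 and 253 TPM against 51.2 and 104 TPM. The other, PP2A1, overlapped at 179 and 231 TPM against 204 and 193 TPM. The part of the phloem markers in the results was not tested. Carlavirus matches took 22.8% and 13.9% of the TPM of the Z0 libraries, and 0.147% and 0.0505% of the Z1 libraries. Rice matches summed to between 2436 and 2955 TPM in 3 libraries and to 32956 TPM in the second Z1 library. Light, trees and virus level split the libraries in the same way and cannot be told apart. With virus and rice matches left out and TPM rescaled, 10 members were called, the 8 described below among them.

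Across the pathway, few unigenes passed the test, and those that did were not the main synthesis enzymes. One member rose under shading and 7 fell, by limma on log2(TPM + 1) with a Benjamini-Hochberg adjusted p under 0.05 over all unigenes and a fold change beyond 2. That is 5.59% of the members, against 5.0% of all 73159 unigenes. By direction, 0.699% of the members were called higher against a background of 3.20%, and 4.90% were called lower against 1.80%. The riser was a siroheme synthase. The 7 that fell were a chlorophyllase, short unigenes named as Mg-chelatase subunit H and uroporphyrinogen decarboxylase, 2 MYB factors and 2 short GDSL lipase unigenes.

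Summed TPM of the 63 enzymes was 2177 and 2202 in natural light, then 2293 and 2661 in shade. The shaded libraries were higher as deposited, an order that held under none of 3 other scalings of the libraries. The median difference of the 143 members (Z1 minus Z0, on the log2(TPM + 1) scale, as for all differences below) was -0.06, beside 0.45 over all unigenes. Both Z1 libraries were above both Z0 libraries for 46 members (32.2%, against 41.5% of all unigenes) and below them for 49 (34.3%, against 18.2%). By branch, the median difference was -0.43 in the common trunk, -0.09 in the magnesium branch, 0.10 in the b cycle, 0.14 in breakdown, 0.13 in the heme branch and -0.02 among the other rows.

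**Figure D1:**
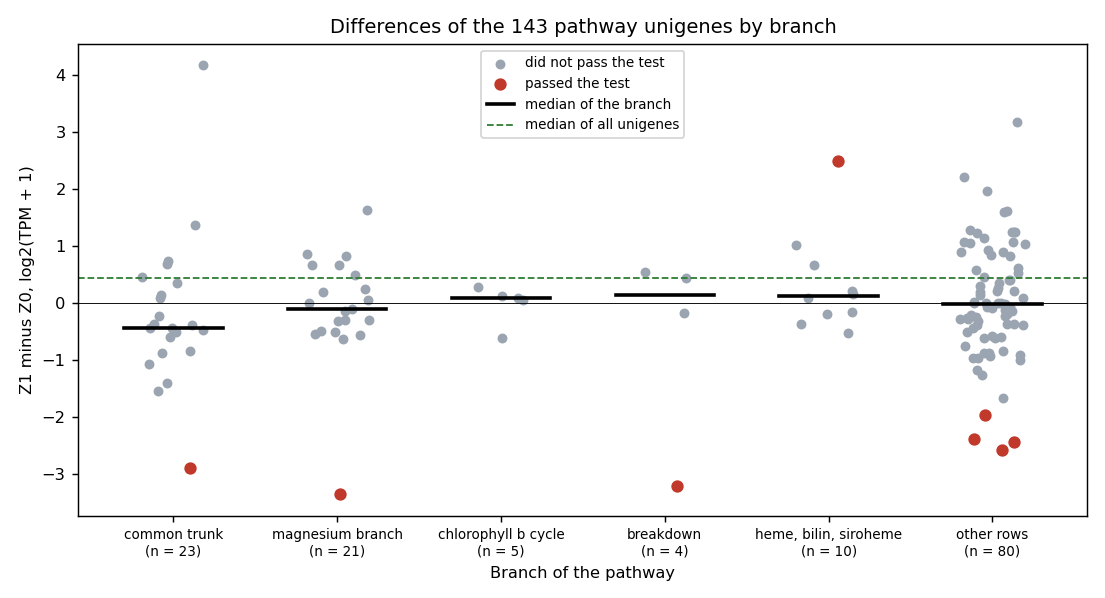
Each point is 1 of the 143 pathway unigenes, placed by branch (horizontal axis) and by its difference Z1 minus Z0 on the log2(TPM + 1) scale (vertical axis). Red points passed the test, black bars are branch medians and the dashed line is the median of all unigenes, 0.45. Only 1 red point, the siroheme synthase at 2.50, lies above 0, and 7 lie below.

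The sign of small differences depended on how libraries were put on 1 scale. Median ratio scaling shifted the median of all unigenes by -0.27 and TMM, a trimmed mean of log ratios, shifted it by -0.33. Each of 3 other scalings multiplied both Z0 libraries by a larger factor than both Z1 libraries, and so moved differences downward. Of the 30 enzyme unigenes above 0 as deposited, 15 turned below 0 under at least 1 of them. None of the 33 below 0 changed sign, but these scalings could hardly turn a lower value, so that adds no support. At the level of steps, the summed TPM was higher in both Z1 libraries for 11 of 32 steps, lower for 7 and overlapping for 14. Of single unigenes in the whole table, 41.5% were higher and 18.2% lower in this way. Of the 11, 4 kept that order under all 3 other scalings, namely glutamate-tRNA ligase, geranylgeranyl reductase, protoheme farnesyltransferase and siroheme synthase. Of the 3 ligase unigenes summed, only DN35226_c0_g1 was higher in Z1. The 7 lower steps were HEMB, HEMC, HEME, CPX, HEMN, ferrochelatase and the cytochrome c heme lyase. All 7 kept their order, which the direction of the 3 scalings fixed in advance, so that adds no support.

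**Figure D2:**
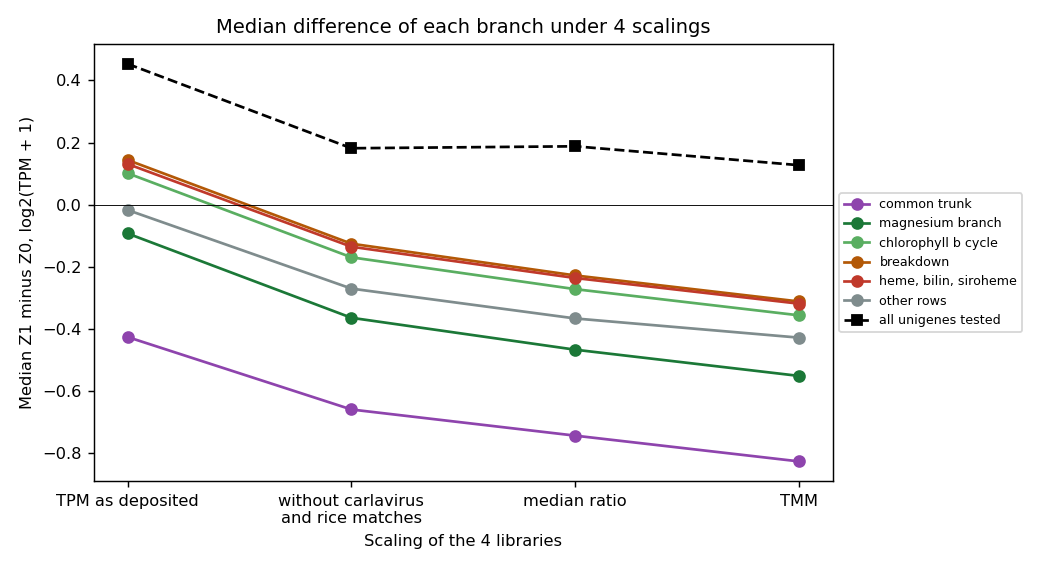
Median difference (Z1 minus Z0, log2(TPM + 1) scale) of each branch and of all unigenes under 4 ways of scaling the libraries. The common trunk is lowest throughout, from -0.43 as deposited to -0.83 under TMM, the b cycle, breakdown and heme medians pass from above to below 0, and the dashed line for all unigenes stays above every branch.

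**Figure D3:**
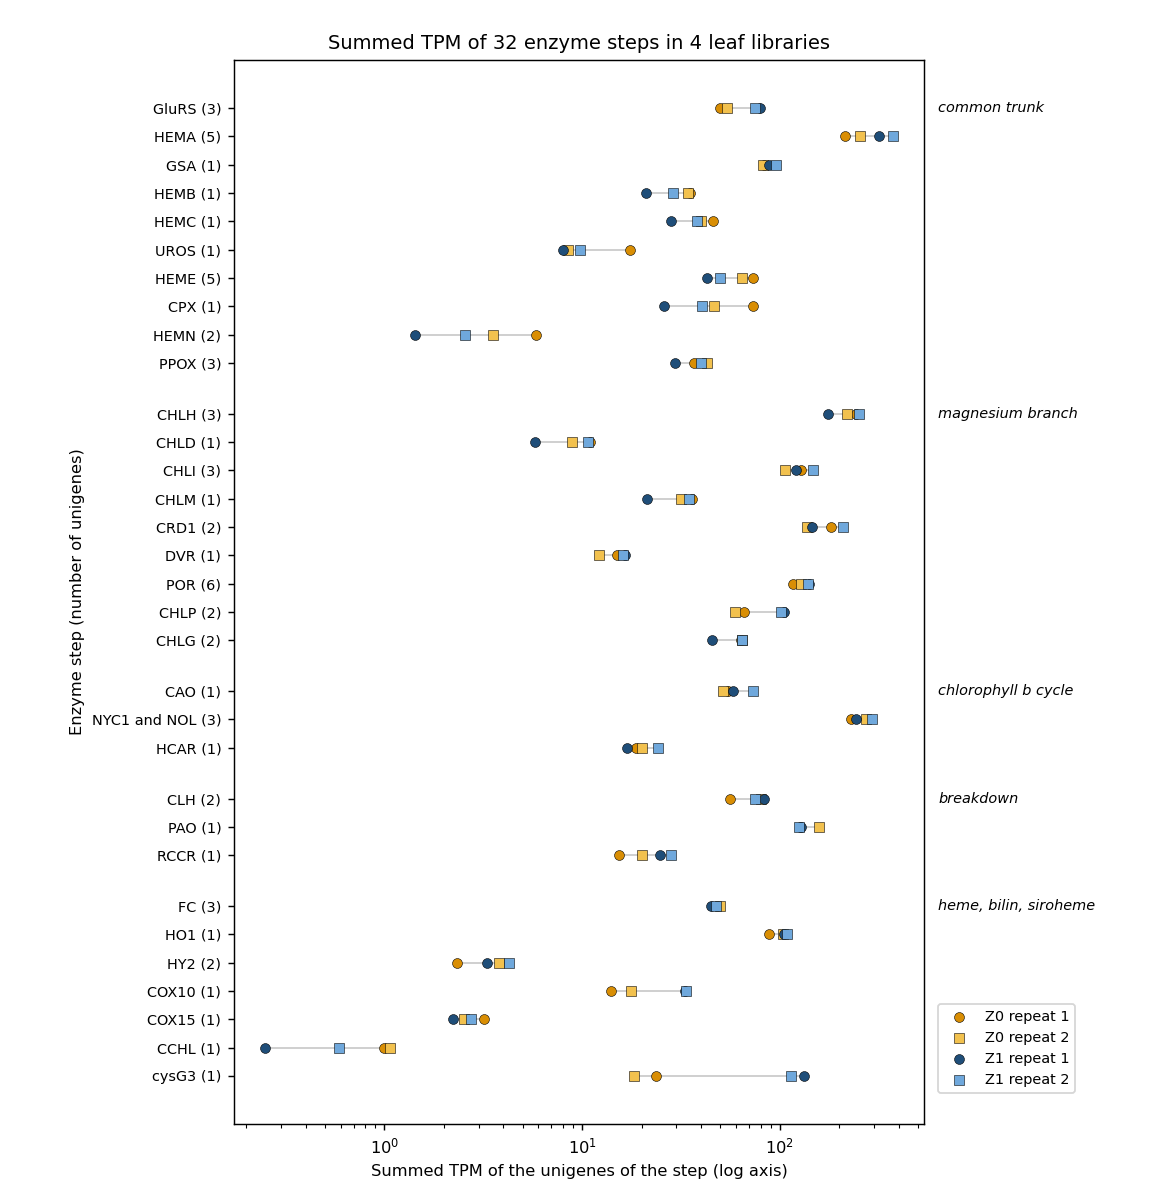
Summed TPM of the unigenes of each of 32 enzyme steps (log axis), in pathway order from top to bottom, with the number of unigenes in parentheses and 1 point per library. Siroheme synthase (cysG3) shows the widest gap between Z0 (orange) and Z1 (blue), and the steps from HEMB to HEMN lie to the left in Z1, apart from UROS, where the conditions overlap.

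In the common trunk, unigenes of the entry steps were mostly higher in shade as deposited and those of the middle steps mostly lower, with 1 call among 23. Glutamate-tRNA ligase charges the glutamate from which 5-aminolevulinic acid is made, and the organellar form (OVA3) was present as 2 long unigenes of 1 assembly component. The unigene DN35226_c0_g1 (3052 nt) was at 3.62 and 0.16 TPM in natural light and 44.5 and 37.6 TPM in shade. Its partner DN35226_c0_g6 (1964 nt) was at 27.5 and 30.7 TPM in natural light and 20 and 22.8 TPM under the net. The first was thus nearly absent from natural light and the more abundant of the pair under shading, and the partner was lower under shading, with no overlap for either. The first differed by 4.18 (SE 0.70) and just missed the limma threshold (adjusted p = 0.0503), and the partner differed by -0.43 (SE 0.21, adjusted p = 0.254). The first passed with virus and rice matches left out (adjusted p = 0.0475) and with the repeat number as a block (0.0243). It also passed among unigenes of at least 5 TPM in 1 library (0.00358). It met that filter only through the Z1 libraries, so that pass adds no support. Summed over all 7 unigenes of the component, the level went from 39.4 and 35.2 TPM to 70.3 and 72.9 TPM (difference 0.92, SE 0.18, adjusted p = 0.0757). A ligase described as cytoplasmic, DN37099_c0_g2, was also counted in this step. It was lower without overlap, at 18.7 and 23.3 TPM in natural light and 15.4 and 14.2 TPM in shade (-0.47, adjusted p = 0.248).

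Glutamyl-tRNA reductase (HEMA), the committed step, had 5 unigenes. In each, both Z1 libraries lay above both Z0 libraries as deposited, an order found in 41.5% of all unigenes. The sign held for 4 under median ratio and TMM scaling and for all 5 with virus and rice matches left out. None passed the test. The most abundant, DN36216_c0_g1, was at 133 and 147 TPM in natural light and 174 and 213 TPM in shade (difference 0.46, SE 0.21, adjusted p = 0.234). The largest difference was in the low copy DN32965_c0_g1, which was at 4.06 and 3.98 TPM in natural light and 16.4 and 8.82 TPM under the net (1.38, SE 0.35, adjusted p = 0.0875). The other abundant copy, DN32276_c1_g2 of 610 nt, was at 38.7 and 58.6 TPM in natural light and 77.8 and 84.3 TPM in shade (0.75, SE 0.27, adjusted p = 0.157), and the remaining copies differed by 0.69 and 0.36. Higher values as deposited were thus found in all copies. Tested only among unigenes of at least 5 TPM in 1 library, DN32965_c0_g1 passed (adjusted p = 0.0298). It met that filter only through the Z1 libraries, so that pass adds no support.

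Glutamate-1-semialdehyde aminomutase (GSA1), which makes 5-aminolevulinic acid, was nearly level at 83.0 and 82.7 TPM in natural light and 88.4 and 95.6 TPM in shade, and its sign turned under each other scaling.

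From 5-aminolevulinic acid to the oxidation of coproporphyrinogen, the order was mostly the opposite. Porphobilinogen is formed by HEMB1, which was at 35.0 and 34.4 TPM in natural light and 20.9 and 29.0 TPM under the net. The next enzyme, porphobilinogen deaminase (HEMC), was at 46.2 and 40.2 TPM in natural light and 28.3 and 38.4 TPM in shade. Coproporphyrinogen oxidase (CPX) was at 72.9 and 46.4 TPM in natural light and 25.9 and 40.5 TPM under the net. For all of these the shaded libraries lay below the others without overlap, the first Z1 library being the lowest each time. Their differences were -0.48 (SE 0.24), -0.38 (SE 0.25) and -0.83 (SE 0.35), and none passed the test (limma adjusted p = 0.270, 0.371 and 0.205). Summed over Trinity components, which group unigenes by shared sequence and can hold other genes, only HEMB1 kept the order without overlap (44.0 and 47.4 TPM against 33.3 and 43.5 TPM). The HEMC component overlapped at 51.5 and 45.3 TPM in natural light and 37.8 and 54.2 TPM in shade (-0.09), and that of CPX at 88.0 and 60.8 TPM against 35.5 and 61.9 TPM (-0.63). Component sums took every unigene, with rice matches not left out. The HEMC component also held DN31620_c0_g3 and DN31620_c0_g5, named for the same enzyme but not members. They were at 2.61 and 5.65 TPM in the second Z1 library and at most 0.52 TPM in the others.

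Uroporphyrinogen-III synthase (UROS), which closes the ring, overlapped at 17.4 and 8.48 TPM in natural light and 8 and 9.72 TPM in shade. Its component went the other way, from 26.1 and 20.5 TPM to 31.8 and 37.4 TPM (0.56, adjusted p = 0.205), and the pirin-like unigene in it was at 1.80 and 3.96 TPM in natural light and 14.04 and 9.93 TPM in shade. For uroporphyrinogen decarboxylase, which trims the side chains, all 5 unigenes were lower in Z1 without overlap, beside 18.2% of all unigenes. The main one, DN33202_c1_g2 of 1534 nt, was at 33.9 and 33.1 TPM in natural light and 25.8 and 31.9 TPM under the net (-0.22, adjusted p = 0.506). Only its short neighbour DN33202_c1_g1 of 272 nt fell, from 9.66 and 4.11 TPM in Z0 to values listed at 0 in both Z1 libraries (adjusted p = 0.0456). That call was lost under median ratio scaling (adjusted p = 0.0536), and the component as a whole went from 52.2 and 49.9 TPM to 29.2 and 35.5 TPM (-0.65, SE 0.20, adjusted p = 0.134). The components of the HEME2 unigene and of HEMN also turned, to 0.46 and 0.31, and in both the most abundant unigene had another name, a transmembrane protein 120 homolog and the GTPase RsgA. The lower values of the middle steps were thus those of the member unigenes, and not of all the components that hold them.

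The last trunk enzyme, protoporphyrinogen oxidase, is the target of several herbicides and is present in plants in a plastid and a second form. Its main unigene PPXI overlapped at 22.9 and 24.1 TPM in natural light and 22.4 and 28.6 TPM in shade. The second form, PPXII, was at 10.2 and 12.7 TPM in natural light and 6.16 and 8.45 TPM under the net, lower without overlap and not past the test (-0.59, SE 0.27, adjusted p = 0.224).

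The magnesium branch contained the most abundant enzyme unigene of the pathway and gave 1 call among 21 unigenes. Mg-chelatase inserts magnesium with 3 subunits. Subunit H (CHLH), the porphyrin-binding one, had as main unigene DN38030_c0_g1 of 5280 nt, at 228 and 211 TPM in natural light and 175 and 241 TPM in shade. Subunit I (CHLI), an ATPase, was at 120 and 101 TPM in natural light and 116 and 139 TPM under the net. Subunit D (CHLD) was at 11.0 and 8.91 TPM in natural light and 5.75 and 10.7 TPM in shade. The conditions overlapped for each of the 3 subunits, D being far lower in level than H and I.

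A short CHLH unigene of 240 nt in the same component, DN38030_c0_g3, fell from 16.5 and 8.68 TPM to 0.27 and 0.29 TPM (-3.35, SE 0.37, adjusted p = 0.0359). It was well below its long partner in every library, and the component as a whole overlapped, at 245 and 223 TPM in natural light and 184 and 246 TPM under the net. Another CHLH unigene, DN25601_c0_g1, was at 0.10, 0.05 and 0 TPM in 3 libraries and at 10.2 TPM in the second Z1 library, the one rich in rice matches. The rule kept it because its best match names no species, although its Swiss-Prot entry is from rice.

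**Figure D4:**
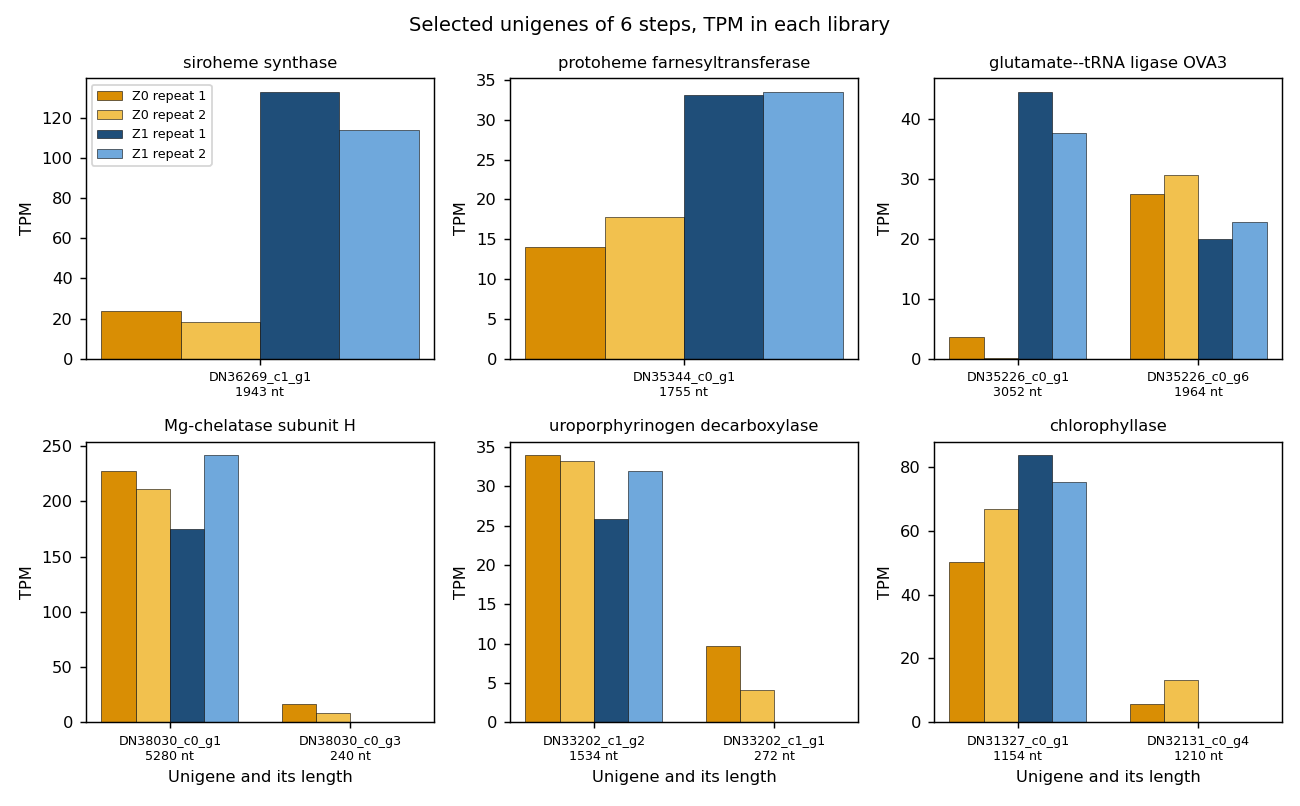
TPM of selected unigenes in the 4 libraries (orange Z0, blue Z1; 1 bar per library), with unigene name and length below each group of bars. Siroheme synthase and protoheme farnesyltransferase are higher in both Z1 libraries, the 2 OVA3 unigenes exchange places, and the short CHLH and decarboxylase unigenes and the second chlorophyllase are near or at 0 in Z1 while their abundant partners are not.

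Mg-protoporphyrin methyltransferase (CHLM) overlapped at 36.0 and 31.7 TPM in natural light and 21.2 and 34.6 TPM in shade. The cyclase that forms the fifth ring (CRD1) had 2 copies of near-equal length in 1 component, whose shared reads may be divided between them by the counting. Copy DN34377_c0_g2 was at 130 and 98.9 TPM in natural light and 87.3 and 123 TPM under the net, while DN34377_c0_g1 was at 50.7 and 38.3 TPM in natural light and 57.6 and 87.3 TPM in shade. The abundant copy overlapped, the other was higher without overlap, and neither passed the test (adjusted p = 0.745 and 0.221). Divinyl reductase (DVR) was at 15.1 and 12.2 TPM in natural light and 16.5 and 16.1 TPM under the net, and its sign turned under the other scalings.

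Protochlorophyllide reductase, which makes chlorophyllide in light, had 6 unigenes that did not move together. The unigene DN32351_c0_g1 (POR1, 901 nt) was at 44.5 and 54.8 TPM in natural light and 95.4 and 81.6 TPM in shade (0.82, SE 0.22, adjusted p = 0.0978). The unigene DN36804_c0_g5 (POR1, 1966 nt) was at 45.8 and 45.9 TPM in natural light and 26.8 and 39.0 TPM under the net (-0.49, SE 0.26, adjusted p = 0.279). These copies, of similar level in natural light, stood apart under shading, with opposite signs under all scalings, though neither passed the test and their difference was not tested. Of the other 4, 3 were lower in Z1 without overlap, beside 18.2% of all unigenes. PORA was among them, at 3.29 and 3.23 TPM in natural light and 1.69 and 2.13 TPM in shade.

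**Figure D5:**
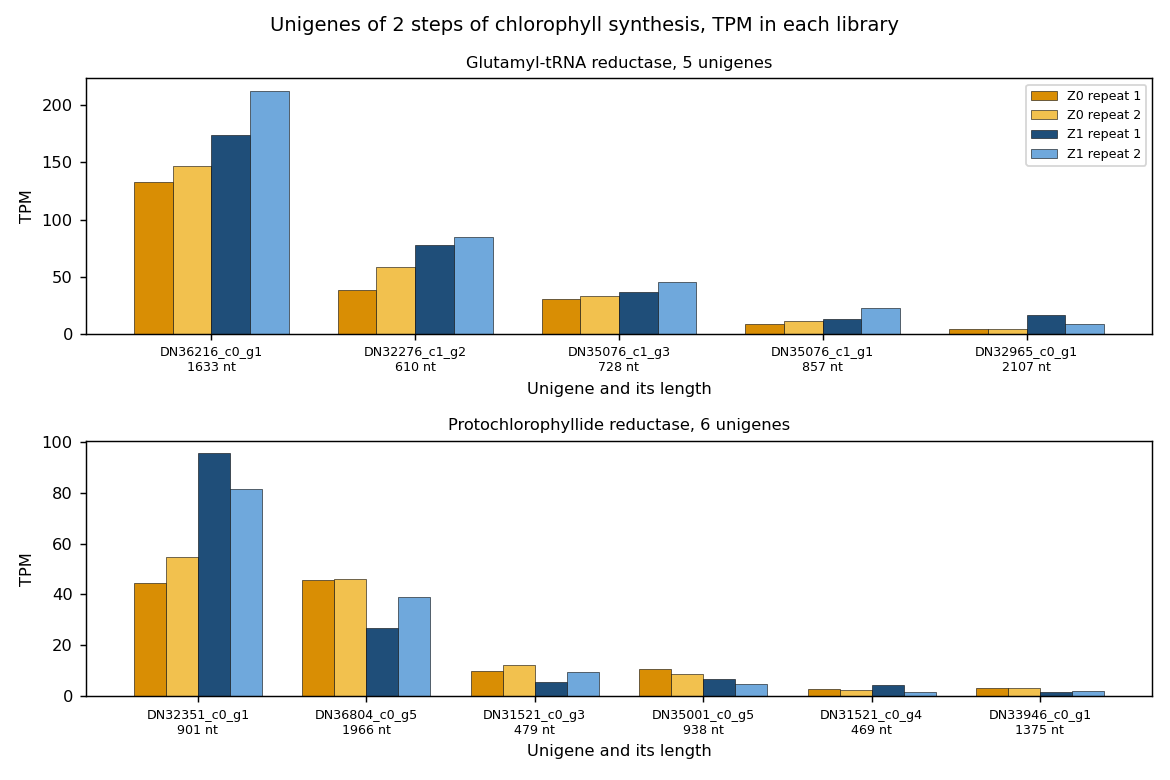
TPM of the 5 glutamyl-tRNA reductase unigenes (top) and the 6 protochlorophyllide reductase unigenes (bottom), ordered by level, with 1 bar per library (orange Z0, blue Z1). The 5 reductase unigenes on top all stand higher in Z1 as deposited, 1 of them turning under median ratio and TMM scaling, whereas in the lower panel DN32351_c0_g1 is higher and DN36804_c0_g5 lower.

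Geranylgeranyl reductase (CHLP), which supplies the phytyl tail of chlorophyll and of tocopherol, was higher in both of its copies. The main copy DN27434_c0_g2 was at 59.3 and 51.9 TPM in natural light and 88.0 and 90.8 TPM under the net (0.68, SE 0.20, adjusted p = 0.110). The low copy DN25201_c0_g1 was at 6.63 and 7.78 TPM in natural light and 17.5 and 11.1 TPM in shade (0.87, SE 0.30, adjusted p = 0.142). In neither did the conditions overlap, and neither passed the test. Chlorophyll synthase (CHLG), which joins tail and ring, went the other way in its main copy, at 60.6 and 60.6 TPM in natural light and 40.7 and 59.4 TPM under the net (-0.30, adjusted p = 0.466). Its low copy DN34127_c0_g1 was higher without overlap (0.51, adjusted p = 0.259). That copy was at 2.87 and 3.69 TPM in natural light and 4.73 and 5.40 TPM in shade, and the summed level of the step overlapped.

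In the chlorophyll b cycle none of 5 unigenes passed the limma test, and none had an unadjusted p under 0.05 with a fold change beyond 2. Chlorophyllide a oxygenase (CAO), which makes chlorophyll b, was at 54.5 and 51.8 TPM in natural light and 57.9 and 72.8 TPM in shade, higher without overlap as deposited but of turned sign under median ratio and TMM scaling. Chlorophyll b reductase, the first step back to chlorophyll a, is formed by NYC1 and NOL. The 2 NYC1 unigenes overlapped, the more abundant being at 123 and 149 TPM in natural light and 127 and 166 TPM under the net. NOL was lower without overlap, at 13.6 and 13.7 TPM in natural light and 7.20 and 10.4 TPM in shade (-0.60, SE 0.26, adjusted p = 0.209). The last enzyme of the cycle (HCAR) overlapped at 18.8 and 20.1 TPM in natural light and 16.8 and 24.2 TPM under the net.

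Breakdown gave 1 call among 4 unigenes. Chlorophyllase removes the phytyl tail, and the unigene named CLH1 (DN32131_c0_g4, 1210 nt) fell from 5.67 and 13.3 TPM in Z0 to 0.09 and 0.04 TPM in Z1 (-3.20, SE 0.44, adjusted p = 0.0414). The more abundant CLH2 was at 50.3 and 66.7 TPM in natural light and 83.5 and 75.3 TPM in shade (0.45, SE 0.23, adjusted p = 0.279). The unigene named CLH1 was thus near 0 under shading while CLH2 was higher in both shaded libraries as deposited, with a difference of -0.01 under TMM scaling, and the summed level of the step overlapped. The component of CLH1, with 5 unigenes, was at 23.3 and 36.3 TPM in natural light and 15.8 and 14.8 TPM under the net, which was not a call (-0.89, SE 0.27, adjusted p = 0.136). Most of what remained there in shade came from unigenes described as a Twinkle homolog (9.36 and 10.6 TPM) and an RRP12-like protein. Pheophorbide a oxygenase (PAO), which opens the ring, overlapped at 127 and 159 TPM in natural light and 128 and 126 TPM under the net. Red chlorophyll catabolite reductase (RCCR), which acts next, was at 15.4 and 20.2 TPM in natural light and 24.9 and 28.1 TPM in shade, higher without overlap but not past the test (0.56, SE 0.24, adjusted p = 0.205).

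The heme side of the pathway carried the only rise. Siroheme synthase (cysG3, DN36269_c1_g1, 1943 nt), whose best match in *Sesamum* is named uroporphyrinogen-III C-methyltransferase, rose from 23.7 and 18.4 TPM in Z0 to 133 and 114 TPM in Z1 (2.50, SE 0.23, adjusted p = 0.0340). Its mean was 21.1 TPM in natural light and 123 TPM under shading, a ratio of 5.86. Leaving out any 1 library ended the call, as it did for every call, with the difference between 2.33 and 2.68. Summed over its component the difference was 2.46 and missed the threshold (adjusted p = 0.0546). Protoheme farnesyltransferase (COX10, DN35344_c0_g1), which modifies heme for cytochrome oxidase, was at 14.03 and 17.8 TPM in natural light and 33.1 and 33.5 TPM under the net. It was higher without overlap and missed the threshold (1.03, SE 0.22, adjusted p = 0.0693), but passed among unigenes of at least 5 TPM (0.0334).

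Ferrochelatase, which inserts iron, was level in its main unigene HEMH, at 24.6 and 24.6 TPM in natural light and 28.4 and 24.7 TPM in shade. A copy of similar level, DN32829_c0_g2, was lower without overlap, at 22.1 and 24.2 TPM in natural light and 14.9 and 21.1 TPM under the net (-0.36, adjusted p = 0.407). The summed level of the step was lower by little, at 48.0 and 49.96 TPM in natural light and 44.6 and 47.8 TPM in shade. Heme oxygenase (HO1), the entry to the bilins, was at 87.7 and 104 TPM in natural light and 104 and 109 TPM under the net. HEMH and HO1 turned sign under the other scalings. Phytochromobilin synthase (HY2), which makes the phytochrome chromophore, had a main unigene at 1.78 and 2.50 TPM in natural light and 1.63 and 1.89 TPM in shade, where the conditions overlapped. Heme A synthase (COX15) also overlapped, at 3.20 and 2.52 TPM in natural light and 2.23 and 2.73 TPM under the net. The single unigene named for a cytochrome c heme lyase matched a green alga and was at 1.07 TPM or less.

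Every call needed all 4 libraries, and none of the 8 was made again with 1 library left out. Such a fit leaves only 1 library in a condition, and its share of calls over all unigenes is not given here. Whether this loss is particular to the members was thus not tested. Over all 4 libraries, 16 of the 143 members had an unadjusted p under 0.05 with a fold change beyond 2 upward, beside 16.5% of all unigenes. Downward there were 10 of the 143, beside 7.71% of all unigenes. Neither share of the members was above that of all unigenes.

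Several of the unigenes that fell were short. Of the 7 that fell, 4 were shorter than 300 nt, a length that 6 of the 143 members had. Among all unigenes called lower, 43.5% were that short, beside 33.7% of those called higher and 32.2% of all 73159. Whether such short unigenes are pieces or alleles of the longer genes they are named for was not tested, and reads shared between copies could not be told apart. Among 45 enzyme unigenes of at least 1000 nt, 2 were called, the siroheme synthase and CLH1, a share of 4.44% beside 4.0% of all unigenes of that length.

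Regulators and partners of the pathway that lie outside the KEGG number gave no call among 16 unigenes by limma, beside 5.0% of all unigenes. At an unadjusted p under 0.05 with a fold change beyond 2, none was higher in Z1, beside 16.5% of all unigenes. In the same way 1 was lower, beside 7.71% of all unigenes. That one was SGRL (DN25144_c0_g1), a relative of the magnesium-removing STAY-GREEN protein, at 5.29 and 4.51 TPM in natural light and 0.63 and 1.26 TPM in shade (-1.62, SE 0.30, adjusted p = 0.0555). It passed under TMM scaling (adjusted p = 0.0477) and with virus and rice matches left out (0.0420). Both scalings lower the Z1 libraries against the Z0 libraries, so these passes are not separate support. STAY-GREEN itself (SGR), which starts chlorophyll a breakdown, was at 140 and 216 TPM in natural light and 275 and 263 TPM under the net (0.63, SE 0.28, adjusted p = 0.218). SGRL was thus lower and SGR higher in both shaded libraries.

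Of the transcription factors that act on chlorophyll genes in *Arabidopsis*, GLK1 was level at 46.2 and 46.0 TPM in natural light and 46.0 and 48.6 TPM in shade. HY5, which promotes light responses, was at 19.98 and 14.98 TPM in natural light and 33.9 and 28.1 TPM under the net (0.80, SE 0.25, adjusted p = 0.124). The phytochrome-interacting factors hold chlorophyll synthesis back in darkness. A 376-nt unigene described as PIF4 was at 83.6 and 60.4 TPM in natural light and 139 and 139 TPM in shade (0.96, SE 0.24, adjusted p = 0.0863). A longer unigene grouped as PIF4, DN29841_c0_g1 of 1484 nt, was at 32.4 and 36.0 TPM in natural light and 36.9 and 48.95 TPM in shade. It differed by less (0.31, SE 0.24, adjusted p = 0.428), and its sign turned under median ratio and TMM scaling. The main PIF1 unigene was at 15.5 and 18.7 TPM in natural light and 27.9 and 26.0 TPM under the net (0.63, SE 0.22, adjusted p = 0.144). A second PIF1 unigene, DN34155_c1_g3, went the other way, at 5.29 and 7.62 TPM in natural light and 1.88 and 4.25 TPM in shade (-0.92, SE 0.40, adjusted p = 0.208). HY5 and both PIF4 unigenes thus showed higher values in both shaded libraries as deposited while the PIF1 unigenes were split, none past the test. The main PIF3 unigene was higher, at 35.1 and 27.9 TPM in natural light and 38.4 and 37.7 TPM in shade, but its sign turned under median ratio and TMM scaling. The other PIF3 unigenes, DN25010_c0_g2 (-0.50) and DN37729_c0_g5 (-0.36), and a low GLK2 unigene at 1.16 and 1.74 TPM in natural light and 0.37 and 0.25 TPM in shade (-0.89) were lower without overlap.

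Among the proteins that steer the synthesis enzymes, GUN4, which assists Mg-chelatase, overlapped at 66.3 and 84.4 TPM in natural light and 73.5 and 80.5 TPM under the net. FLU, a brake on glutamyl-tRNA reductase, was at 9.26 and 8.56 TPM in natural light and 5.03 and 8.24 TPM in shade (-0.41, adjusted p = 0.414). The main unigene of LIL3, which holds geranylgeranyl reductase at the membrane, was at 90.8 and 97.9 TPM in natural light and 62.8 and 78.0 TPM under the net (-0.42, adjusted p = 0.266). These were lower without overlap, whereas a second LIL3 unigene, DN29298_c0_g9, overlapped at 48.2 and 36.0 TPM in natural light and 46.8 and 57.6 TPM in shade (0.31).

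Pheophytinase (PPH), which takes the tail off pheophytin in leaf senescence and is not in the KEGG rows, was added after its values were seen. Its main unigene DN37696_c0_g3 was at 84.0 and 113 TPM in natural light and 56.2 and 53.9 TPM in shade (-0.81, SE 0.23, adjusted p = 0.108). A second, DN35525_c0_g3, was at 60.5 and 80.0 TPM in natural light and 30.1 and 40.9 TPM under the net (-0.97, SE 0.27). The unigene DN37696_c0_g2, also named PPH and in the component of the main one, overlapped at 11.8 and 7.86 TPM in natural light and 10.6 and 15.9 TPM in shade (0.40). DN37696_c0_g3 and DN35525_c0_g3 lay lower without overlap, and the main one passed the test under median ratio scaling (adjusted p = 0.0439), TMM scaling (0.0445) and with virus and rice matches left out (0.0403). Each of these scalings lowers the Z1 libraries against the Z0 libraries, so the passes are not separate support.

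The 80 other rows carried protein names from outside the pathway. The 36 MYB factors carried the entry for heme A synthase, 1 of 40 members with it being the true COX15. Of the 36, 2 fell and none rose (5.56% called, against 5.0% of all unigenes). Without overlap, 16 were higher in Z1 and 7 lower, and these shares of 44.4% and 19.4% were close to the 41.5% and 18.2% of all unigenes. A GAM1 unigene (DN35297_c0_g3), named after a gibberellin-responsive MYB, fell from 16.9 and 22.0 TPM to 5.47 and 3.27 TPM (-1.95, SE 0.31, adjusted p = 0.0477). A MYB86 unigene (DN27155_c0_g3) fell from 4.97 and 6.30 TPM to 0.26 and 0.19 TPM (-2.43, SE 0.27, adjusted p = 0.0362). Other members of these names were not called. Of GAM1, DN28154_c0_g1 was higher without overlap (0.63) and DN32111_c0_g5 overlapped (-0.06). The more abundant MYB86 unigene, DN27015_c0_g2, also overlapped (-0.06). DN35297_c0_g3 lost its call with the repeat number as a block (adjusted p = 0.0502). Its component DN35297_c0, with 6 unigenes, went the other way and overlapped, at 144 and 224 TPM in natural light and 385 and 204 TPM in shade (0.64, adjusted p = 0.388). Most of that TPM came from DN35297_c0_g1, described as a B2 protein, at 109 and 177 TPM in natural light and 363 and 183 TPM under the net. The component of the MYB86 unigene that fell, which held 2 further MYB unigenes, was at 7.48 and 8.09 TPM in natural light and 6.13 and 2.59 TPM in shade (-0.80, adjusted p = 0.286). Of these, DN27155_c0_g1 (MYB26) was higher, at 0.38 and 0.53 TPM in natural light and 5.60 and 1.99 TPM in shade (1.61, adjusted p = 0.110). DN27155_c0_g2, also named MYB26, was lower (-0.99).

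Higher values that missed the threshold were found in other MYB unigenes. A MYB36 unigene (DN37178_c0_g2) was at 1.56 and 0.09 TPM in natural light and 19.7 and 10.3 TPM in shade (3.19, SE 0.55, adjusted p = 0.0517). An ODO1 unigene (DN32397_c1_g2), named for a petunia regulator of floral scent, was at 1.93 and 2.48 TPM in natural light and 21.4 and 8.76 TPM under the net (2.21, SE 0.46, adjusted p = 0.0657). In the same component, MYB308 (DN32397_c1_g5) was at 8.72 and 12.7 TPM in natural light and 32.9 and 22.4 TPM in shade (1.29, SE 0.31, adjusted p = 0.0823). For all of these both shaded libraries lay above the others, the first being the higher. MYB44 (DN32461_c1_g7) was at 18.9 and 39.5 TPM in natural light and 85.6 and 50.3 TPM under the net (1.23, adjusted p = 0.168), and MYB108 (DN36740_c1_g3) was at 16.9 and 55.2 TPM in natural light and 11.3 and 7.15 TPM in shade (-1.66, adjusted p = 0.163). Another MYB108 unigene of that component, DN36740_c1_g2, went the other way, at 0.45 and 2.18 TPM in natural light and 8.99 and 3.39 TPM in shade (1.62, adjusted p = 0.160).

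The remaining 44 rows were transport, lipase, glycosyltransferase and other proteins. Another 2 members, GDSL lipase unigenes of 233 and 269 nt, fell from 4.59 and 3.86 TPM (DN37279_c0_g2) and from 4.24 and 5.66 TPM (DN8827_c0_g1) to values listed at 0 in Z1 (adjusted p = 0.0383 and 0.0368). The component of the first, which also held a LIMR family unigene, overlapped (0.16), and the second was alone in its component. All 3 unigenes described as photosystem II subunit PsbX were lower without overlap, beside 18.2% of all unigenes. The most abundant of them, and of all 143 members, was DN27644_c0_g1 at 393 and 448 TPM in natural light and 205 and 365 TPM under the net (-0.61, SE 0.34, adjusted p = 0.301). Another, DN23561_c0_g1, was at 122 and 101 TPM in natural light and 31.99 and 65.4 TPM in shade (-1.26, SE 0.39, adjusted p = 0.123). The Rieske protein PTC52, which has been linked to import of protochlorophyllide reductase, was level at 207 and 211 TPM in natural light and 176 and 249 TPM under the net. The 8 unigenes grouped as TIC32, an inner-envelope dehydrogenase, held 3 higher and 3 lower without overlap, beside 41.5% and 18.2% of all unigenes, among them a 332-nt unigene (DN30886_c0_g1) at 6.88 and 8.85 TPM in natural light and 12.6 and 24.4 TPM in shade (1.07, adjusted p = 0.151).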

How the data were processed

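Leaf RNA of *S. oblata* was sequenced on an Illumina instrument, reads were assembled de novo with Trinity and the longest transcript of each gene was kept, per the study's methods. Tools listed in the submitters' processing notes, without versions, were cutadapt, FastQC, Salmon and edgeR. The authors deposited TPM, length and annotation of 73159 unigenes. No reads or counts were used, which leaves sequencing depth and its precision unknown. The labels list 1 sample per condition, and the 2 TPM columns of each were matched by column name.

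Members were taken by KEGG pathway number, without *Oryza* matches, and sorted into branches by protein description. The members and the lists were chosen with earlier results of these data known. After a filter of 1 TPM in any library, which every unigene passed, limma 3.58.1 (R 4.3.3, with version 1.17.8 of the data.table package) was fitted to log2(TPM + 1) of the whole table with a trended prior, and was tested on simulated data. A call needed both an adjusted p (Benjamini-Hochberg) under 0.05 and a log2 difference beyond 1. With 2 libraries against 2, no exact permutation p can go below 0.333, so p-values rest on the model. Nothing says which trees a repeat pooled, so they measure only the spread between these libraries. Python 3.11.15, pandas 2.3.3 and matplotlib 3.10.9 served for summaries and plots.

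Named were the most abundant member of each step, all called members, non-overlapping members of at least 10 TPM with a log2 difference beyond 1, and the most abundant unigene of each outside name; further copies were named after their values were seen. Alternatives were the pseudocount (0.1 or 5), filters (at least 5 TPM, or none), median ratio and TMM scaling, virus and rice matches left out, the repeat number as a block, thresholds, sums per Trinity component, rice matches kept, and leaving out each library. Sequences of the members were not used here.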

Additional observations from a re-analysis of the deposited data

How the results depend on the processing

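Of 143 members, 8 were called. The count was 2 with a pseudocount of 0.1, 0 with a pseudocount of 5, 15 among unigenes of at least 5 TPM, 26 at an unadjusted p under 0.05, and 0 for TPM summed per Trinity component. Some of the 15 met the filter of 5 TPM only through the Z1 libraries, DN35226_c0_g1 and DN32965_c0_g1 among them. It stayed within 1.5 times of 8 with no filter, median ratio or TMM scaling, virus and rice matches left out, rice matches kept, no fold threshold, and the repeat number as a block. Leaving out 1 library kept none of the 8, in fits whose share of calls over all unigenes is not given here. The lone library of a condition is then assumed to vary like the other condition. The median of the members was -0.06 and became -0.37 under median ratio scaling, -0.44 under TMM, -0.30 with virus and rice matches left out and 0.17 per Trinity component. By branch, counts of 1 in trunk, magnesium branch, breakdown and heme branch, of 0 in the b cycle and of 4 in the other rows became 0 in each with a pseudocount of 5. With a pseudocount of 0.1 they were 0 in trunk, breakdown and other rows. Among unigenes of at least 5 TPM they were 3 in the trunk, 2 in the heme branch and 8 in the other rows. At an unadjusted p under 0.05 they were 4 in the trunk, 2 in the heme branch and 18 in the other rows. The trunk had 0 under median ratio scaling and 2 with virus and rice matches left out. Without 1 library no branch kept any of its calls. The outside list, with 0 called, had 1 under TMM, with virus and rice matches left out, and at an unadjusted p under 0.05. With the replicate number as a block, 9 members were called, 7 of them among the 8, and 2 in the trunk. Samples share only that number, and same-numbered deviations correlated at r = -0.0876 over 62410 unigenes of at least 1 TPM on average. The cause of these changes was not tested. DESeq2 and the count filter, planned for counts, were not run because the values are TPM. The unknown depth limits all values near 0.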

Other observations

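The 34 pathway unigenes matched to rice, left out above, reached a summed 6.63 and 5.72 TPM in natural light, 0.86 and 187 TPM in the first and second Z1 library. In the second Z1 library all 34 reached 1 TPM, and 33 of them did so in no other library. Among the 143 members, 7 had a green alga as best match. The 4 ceruloplasmin-like unigenes of that kind gave 2.19 and 4.73 TPM together in natural light, and 11.1 and 0 TPM in shade, so the first Z1 library was highest and the second was listed at 0.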
